A study of Mus musculus with 16 samples.

Results

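The 16 end-stage tumours of this experiment were divided here into leukocyte-rich and leukocyte-poor tumours by how much white blood cell RNA each contained. Each library was scored by the mean log2(FPKM + 1) of 4 genes expressed across white blood cells (Ptprc, Coro1a, Laptm5 and Lcp1). Levels are in the authors' unit, FPKM, the fragments of a gene divided by its length and by a scaling factor of the library. In the deposited values that factor followed a size factor of each library and not its total depth. Within each genotype the 4 libraries with the highest score were called rich and the 4 with the lowest poor, which gave 8 rich tumours set against 8 poor tumours, all 16 libraries of the series. The study itself labels no tumour as rich or poor. Because the groups were chosen by measured values of these same libraries, every rich against poor difference below is a description with no p-value. A gene is said to be called when its limma adjusted p was below 0.05, and that call is used as a sorting rule.

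The tumours grew from B16F10 cells, a mouse melanoma line, injected under the skin of the right flank of C57BL/6J mice of both sexes that were 8 weeks old. The tumour cells were BdP, which the labels describe as Pros1-deficient and in another field as a Pros1 knockdown, or wild-type (WT). Mice received cisplatin at 5 mg/kg or PBS into the abdominal cavity, in 2 rounds of 3 daily doses from 8 days after implantation. There were 4 libraries each of BdP tumours under cisplatin, BdP tumours under PBS, WT tumours under cisplatin and WT tumours under PBS. The host mice carried no labelled mutation, so in every group the infiltrating cells were those of an intact C57BL/6J host. The labels give neither the number of BdP clones nor whether replicates came from separate litters or days, so the spread between replicates may be partly technical.

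White blood cells enter a tumour from the blood and share a small set of proteins that cells of the melanocyte lineage largely lack. Ptprc encodes CD45, the surface phosphatase that marks nearly all nucleated blood cells, and Coro1a and Lcp1 encode the actin-binding proteins coronin 1A and L-plastin. Laptm5 encodes a lysosomal membrane protein of blood cells. B16F10 is known as a poorly immunogenic melanoma, in which macrophages and other myeloid cells are usually the main infiltrate. RNA of a whole tumour mixes all of these cells, and fewer cells of a type cannot be told apart from less RNA per cell.

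The start regions of 4 genes are shown because they belong to the genes the results turn on, 2 that set the score and 2 of the antigen-presentation group that differed most. Each window runs from 250 bases before to 50 bases after the gene start in RefSeq on GRCm38.p6, 5′ to 3′ on the gene's strand; RefSeq starts need not equal the gene bounds given below, which are those of the deposited table. Ptprc lies on the minus strand at chr1:138175256-138175555 and Laptm5 on the plus strand at chr4:130913066-130913365. H2-Aa lies on the minus strand at chr17:34287774-34288073 and H2-Eb1 on the plus strand at chr17:34305617-34305916. Capitals mark GGAAGT, the core that ETS family factors such as PU.1 bind, in Ptprc and Laptm5, and CTGATTGG, the Y box of MHC class II promoters, in H2-Aa and H2-Eb1, each searched on both strands.
Ptprc: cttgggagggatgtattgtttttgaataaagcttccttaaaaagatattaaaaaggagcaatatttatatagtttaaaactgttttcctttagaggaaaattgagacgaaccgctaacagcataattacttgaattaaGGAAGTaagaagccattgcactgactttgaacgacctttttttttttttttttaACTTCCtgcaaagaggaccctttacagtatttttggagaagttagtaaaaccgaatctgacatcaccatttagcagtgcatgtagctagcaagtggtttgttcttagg
Laptm5: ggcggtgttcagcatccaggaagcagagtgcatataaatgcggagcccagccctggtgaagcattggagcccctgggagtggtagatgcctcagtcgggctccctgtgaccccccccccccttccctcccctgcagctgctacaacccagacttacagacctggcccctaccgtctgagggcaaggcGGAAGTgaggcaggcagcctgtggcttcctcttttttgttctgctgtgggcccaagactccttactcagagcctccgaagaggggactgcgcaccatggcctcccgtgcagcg
H2-Aa: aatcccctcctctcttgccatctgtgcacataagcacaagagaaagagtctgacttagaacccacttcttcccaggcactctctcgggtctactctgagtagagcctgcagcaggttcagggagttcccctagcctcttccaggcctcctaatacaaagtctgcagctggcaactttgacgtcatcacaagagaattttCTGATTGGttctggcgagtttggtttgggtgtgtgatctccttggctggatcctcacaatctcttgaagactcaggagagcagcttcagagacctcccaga
H2-Eb1: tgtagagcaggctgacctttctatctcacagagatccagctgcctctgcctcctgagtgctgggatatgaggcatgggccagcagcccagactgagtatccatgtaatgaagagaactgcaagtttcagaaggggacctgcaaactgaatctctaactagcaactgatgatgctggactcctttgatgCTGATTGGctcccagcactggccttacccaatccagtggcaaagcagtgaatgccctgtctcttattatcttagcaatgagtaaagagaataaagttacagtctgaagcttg
GGAAGT, or its reverse complement, was present in the windows of 3 of the 4 score genes (Ptprc, Laptm5 and Lcp1) and in 24.1% of 27025 promoters of the same length. The longer PU.1 motif GAGGAAGT, which contains GGAAGT, was in 0 of the 4 windows and in 3.28% of all promoters. CTGATTGG was in 2 of the 3 windows found for the 4 MHC class II genes with the largest differences and in 4.31% of all promoters. It was also in 2 of the 4 windows of the MHC class I genes with the largest differences (H2-Q6 and H2-Q7), and in those of Cxcl9 and Irf8. GAAANNGAA, the core of the interferon-stimulated response element, was in 3 of the 7 windows found for the 8 interferon response genes with the largest differences (Cxcl9, Gbp2 and Isg15) and in 8.57% of all promoters. It was in 0 of the 4 MHC class I windows. The table held no entry for Cd74 or Zbp1.

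The scores of the 8 rich tumours ran from 3.49 to 6.33 with a median of 5.39, against 1.40 to 4.74 with a median of 3.22 in the 8 poor tumours. The ranges overlap because each genotype was divided separately. The BdP rich tumours scored 6.33, 5.54, 5.50 and 5.40, and the BdP poor tumours 4.74, 4.37, 4.04 and 3.58. The WT rich tumours scored 5.38, 4.54, 4.00 and 3.49, and the WT poor tumours 2.86, 2.35, 1.92 and 1.40. The lowest rich and the highest poor score were 0.657 apart in BdP and 0.635 apart in WT. All 4 BdP poor tumours therefore scored above the WT rich tumour with the lowest score. The division left 2 rich and 2 poor tumours in each of the 4 labelled groups. It was the same when any 1 of the 4 genes was left out of the score and when tumours were divided within genotype and treatment.

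**Figure D1:**
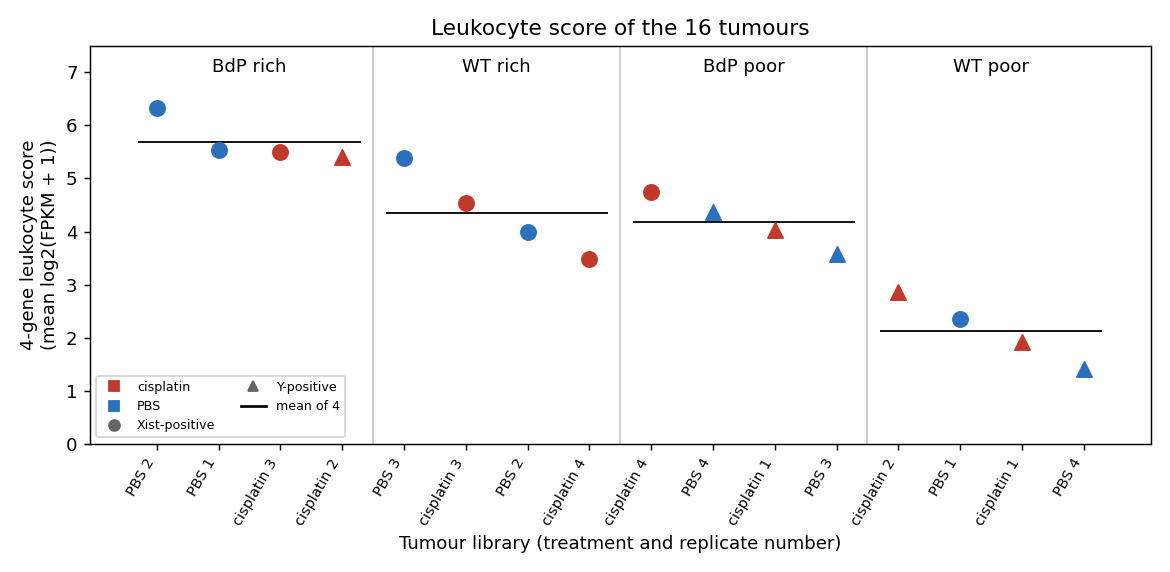
Leukocyte score (mean log2(FPKM + 1) of Ptprc, Coro1a, Laptm5 and Lcp1, vertical axis) of each of the 16 tumour libraries, with BdP rich, WT rich, BdP poor and WT poor tumours from left to right and the mean of each 4 as a line. Cisplatin is red and PBS blue, circles are hosts with Xist and triangles hosts with Y chromosome transcripts, and 7 of the 8 rich tumours but 2 of the 8 poor tumours are circles.

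Ptprc (chromosome 1 from 138062861 to 138175708, GRCm38) had 2.32 FPKM at the lowest, 9.78 at the median and 20.9 at the highest in rich tumours, against 0.190, 1.51 and 6.66 FPKM in poor tumours. Coro1a (chromosome 7 from 126699773 to 126707787) had 15.1, 77.3 and 239 FPKM in rich tumours, against 1.59, 13.1 and 57.7 FPKM in poor tumours. Laptm5 (chromosome 4 from 130913125 to 130936141) had a median of 67.4 FPKM in rich tumours, against 16.4 FPKM in poor tumours. Lcp1 (chromosome 14 from 75131101 to 75230842) had a median of 36.4 FPKM in rich tumours, against 13.3 FPKM in poor tumours. These values made the groups.

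Several libraries stood apart. Reads assigned to genes ran from 12657417 to 25903775 in rich tumours and from 10051843 to 27055771 in poor tumours. Mitochondrial transcripts took 76.9% of the reads of the poor tumour WT PBS 1, 12.2% and 21.7% in the rich tumours WT cisplatin 3 and WT cisplatin 4, and at most 5.06% in the other 13. Haemoglobin transcripts took 0.00199% to 15.5% of reads in rich tumours and 0.00247% to 2.85% in poor tumours. Hosts with Xist, the transcript of the inactive X chromosome of females, made up 7 of the 8 rich tumours and 2 of the 8 poor tumours, and the others carried Y chromosome transcripts. The only rich tumour of a Y-positive host was BdP cisplatin 2, which also had few macrophage transcripts. When host sex was added to the fit, an alternative chosen after seeing the data, limma called 0 genes between rich and poor, with 1529 genes at an unadjusted p below 0.05. The 522 genes called without host sex, a set chosen by these same data, all kept their direction. Of them 489 had an unadjusted limma p below 0.05, and their median difference was 0.865, against 1.054 without host sex. For host sex itself, limma called 0 genes beside the class and 371 without the class. With host sex in the fit the median difference was 1.65 for MHC class II (2.11 without it), 1.54 for B cell (1.48), 1.13 for pan-leukocyte (1.53) and 1.06 for T cell genes (1.41). It was 0.24 for macrophage (1.09 without it), 0.30 for chemokine ligand (1.13), 0.30 for MHC class I (0.95), 0.22 for interferon gamma (0.79) and 0.31 for checkpoint genes (0.93). For erythroid genes it was -0.43, against 1.87 without host sex. Host sex and leukocyte content can be separated only by the 3 tumours that break the pairing, BdP cisplatin 2, WT PBS 1 and BdP cisplatin 4. The values with host sex in the fit therefore lean on these libraries. Among them are the library with 76.9% mitochondrial reads and the rich tumour with few macrophage transcripts.

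Of 12315 genes tested, 513 were called higher in rich tumours (4.17% of genes tested) and 9 lower (0.0731%), 522 in all (4.24%). Leaving out BdP cisplatin 2 gave 957 called genes, and leaving out BdP PBS 3 gave 346. BdP cisplatin 2 was the only rich tumour of a Y-positive host. Every count below without it therefore sets rich tumours of Xist-positive hosts alone against mostly Y-positive poor tumours. The median difference over all genes was -0.01, and 47.6% of genes were positive. Differences are rich minus poor on the log2(FPKM + 1) scale, with the moderated standard error, unless a level is named. The genes whose values did not overlap between rich and poor tumours in BdP and again in WT numbered 198 higher (1.61%) and 3 lower (0.0244%) in rich tumours. The 37 gene lists held 115 of the called genes, all higher in rich tumours, and 407 were in no list. Among called genes were 482 protein-coding genes higher and 8 lower, 8 immunoglobulin variable segments, 4 immunoglobulin constant genes, 3 T cell receptor constant genes and 3 T cell receptor variable segments. A list member could pass the minimum level (1 FPKM in 4 libraries) through the rich tumours alone, so the counts below describe the lists and support no claim of their own.

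Genes shared by most white blood cells followed the score. Of 35 such genes outside the score, 34 passed the minimum level, 30 were called higher and 0 lower, and the median difference was 1.53. Ptprcap, which encodes a partner protein of CD45, had 1.65, 23.2 and 91.3 FPKM (lowest, median and highest) in rich tumours and 0, 2.54 and 14.8 FPKM in poor tumours, a difference of 2.40 ± 0.40. Its values did not overlap between rich and poor tumours in either genotype. Cd52, a short surface glycopeptide of lymphocytes and myeloid cells, had 12.3, 61.0 and 155 FPKM in rich tumours and 1.02, 8.57 and 36.7 FPKM in poor tumours (2.34 ± 0.35). Rac2, a small GTPase of blood cells, differed by 2.28 ± 0.33, with 7.77, 34.9 and 92.4 FPKM in rich tumours and 0.415, 5.00 and 18.6 FPKM in poor tumours. Both were without overlap in each genotype, as were Sash3, an adaptor of lymphocyte signalling (2.06 ± 0.31), and Fermt3, the integrin activator kindlin-3 (1.84 ± 0.25).

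**Figure D2:**
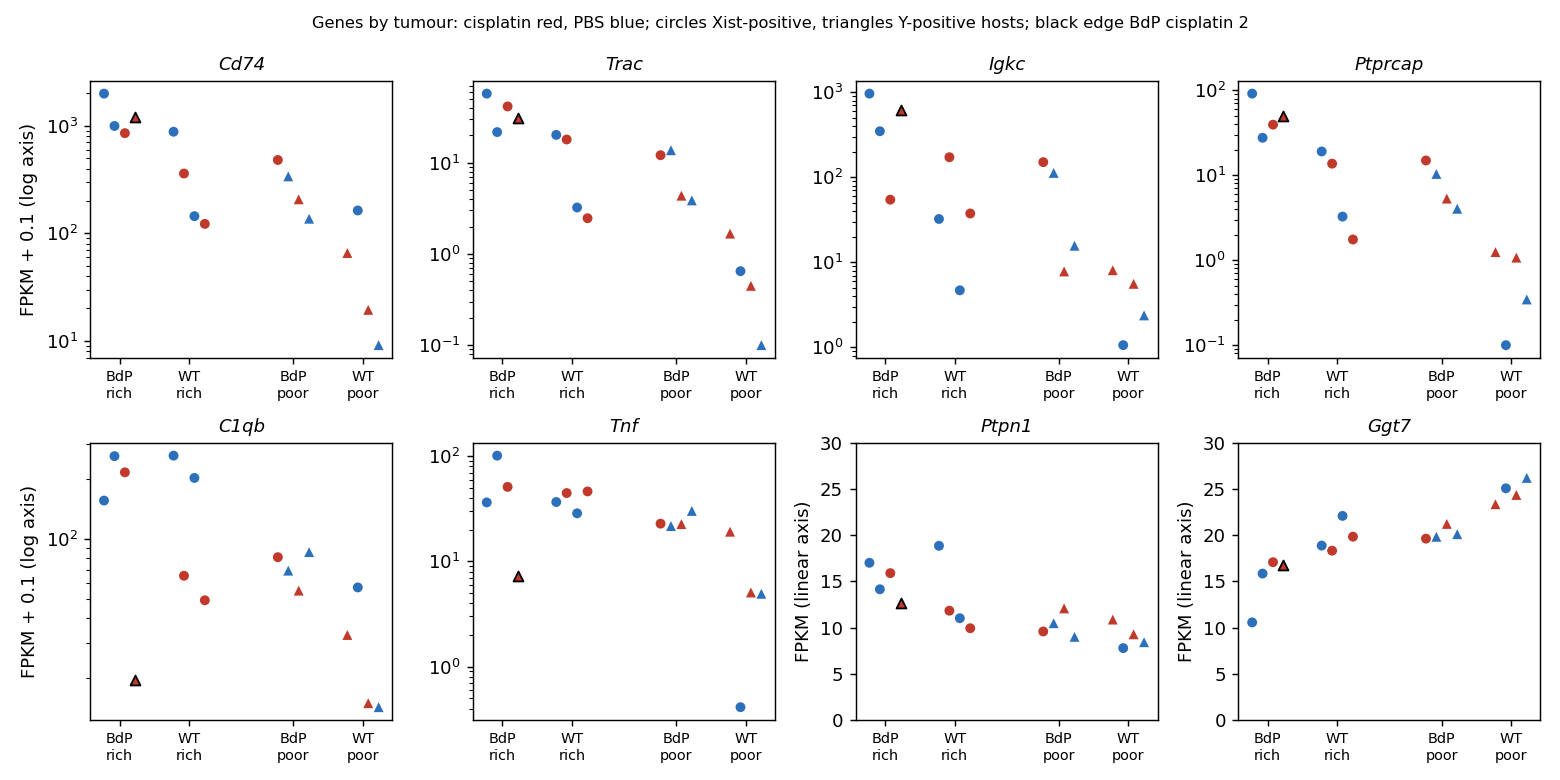
Level of 8 genes in each tumour, in FPKM + 0.1 on a log axis (FPKM on a linear axis for Ptpn1 and Ggt7), with BdP rich, WT rich, BdP poor and WT poor tumours from left to right. Cisplatin is red, PBS blue, circles are Xist-positive hosts and triangles Y-positive hosts; BdP cisplatin 2, with a black edge, has high Cd74 and Igkc and, at 19.4 and 7.18 FPKM, the lowest C1qb and Tnf of the rich tumours.

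MHC class II molecules, which present peptides to CD4 T cells, formed the list with the largest median difference among lists with 5 or more members tested. Of 10 class II genes, 8 were called higher and 0 lower, with a median of 2.11 (2.02 in BdP and 2.06 in WT tumours). Cd74 (chromosome 18 from 60803848 to 60812646), the invariant chain that escorts class II molecules, had 122, 867 and 1991 FPKM in rich tumours and 9.02, 150 and 481 FPKM in poor tumours. Its difference of 2.51 ± 0.53 was the largest of the MHC class II genes. The BdP rich tumours were all above the BdP poor tumours, while the WT groups overlapped. H2-Aa (chromosome 17 from 34282744 to 34287827), a class II alpha chain whose start region is printed above, had 36.7, 224 and 554 FPKM in rich tumours and 3.51, 42.9 and 117 FPKM in poor tumours (2.41 ± 0.45). The beta chains H2-Eb1 (2.34 ± 0.48) and H2-Ab1 (2.29 ± 0.52) and H2-DMb2, a chain of the peptide-exchange factor H2-DM (2.33 ± 0.51), differed to a like extent. H2-DMb1 and H2-Ob, named after their values were seen, were the members not called.

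T cell genes were higher in rich tumours nearly throughout the list. Of 23 T cell identity genes 21 passed the minimum level, and 19 were called higher and 0 lower, with a median of 1.41. Trac, the constant region of the T cell receptor alpha chain, had 2.37, 20.9 and 57.3 FPKM in rich tumours and 0, 2.67 and 13.6 FPKM in poor tumours (2.32 ± 0.40), without overlap in either genotype. The receptor beta constant genes Trbc2 (2.59 ± 0.45) and Trbc1 (2.11 ± 0.39) share nearly identical exons, so the division of reads between them is uncertain. Cd8b1, a chain of the CD8 co-receptor, differed by 1.91 ± 0.40. Thy1, which T cells and fibroblasts both express, was called (1.89 ± 0.35) and was the only called member of the fibroblast list. Of 7 regulatory T cell genes that passed the minimum level, 2 were called, namely Tnfrsf4, the costimulatory receptor OX40 (1.67 ± 0.34), and Ctla4, an inhibitory receptor (1.52 ± 0.31). Without BdP cisplatin 2 all 7 were called.

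Killer cell genes were called in part. Of 15 cytotoxic effector genes that passed the minimum level 3 were called higher, and of 13 NK receptor genes 2 were, with medians of 0.87 in both lists. Nkg7, a granule membrane protein, had 1.86, 26.9 and 67.4 FPKM in rich tumours and 0, 5.10 and 14.1 FPKM in poor tumours (2.09 ± 0.52). Ctsw, a protease of killer cells (1.84 ± 0.33), and Klrd1, the CD94 receptor subunit (1.70 ± 0.29), were also called, as were the transcription factor gene Eomes and the activating receptor gene Cd226, named after their values were seen. Gzma, a granzyme, ran from 1.35 to 66.5 FPKM in rich tumours and from 0 to 10.6 FPKM in poor tumours and was not called (1.88 ± 0.57). Without BdP cisplatin 2, 8 cytotoxic effector and 10 NK receptor genes were called, and without BdP PBS 2 the cytotoxic count was 1. In the rich tumours these levels were lowest in WT cisplatin 4 and highest in BdP cisplatin 3 for Gzma and Klrd1.

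B cell and antibody genes had a median difference of 1.48, but 5 of the 23 members that passed the minimum level were called. Igkc, the constant region of the kappa light chain, had 4.59, 113 and 965 FPKM in rich tumours and 0.962, 7.85 and 151 FPKM in poor tumours (2.99 ± 0.76). Ighm, the IgM heavy chain, had 2.20, 63.9 and 382 FPKM in rich tumours and 1.38, 3.02 and 56.5 FPKM in poor tumours (2.71 ± 0.70). Cd79b, a signalling chain of the B cell receptor, was called (2.36 ± 0.64), and its partner Cd79a was not (2.41 ± 0.76). The antibody genes Ighg2c (2.44) and Iglc1 made up the 5, and Iglc1 was named after its values were seen. Rich and poor tumours overlapped for each of these 4 genes in both genotypes. The count of called B cell genes was 0 without WT PBS 4 and 8 without BdP cisplatin 3. The rich tumour WT PBS 2 had 4.59 FPKM of Igkc, below 6 of the poor tumours.

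Macrophage genes gave a wide difference that was rarely called. Of 25 macrophage and monocyte genes 23 passed the minimum level and all 23 were positive, with a median of 1.09. Of them 1 was called, close to the share over all genes (4.24%), namely Ly6c2, a monocyte surface marker (1.33 ± 0.33). Ctss, the lysosomal protease cathepsin S, had 53.4, 158 and 297 FPKM in rich tumours and 7.58, 62.0 and 126 FPKM in poor tumours (1.58 ± 0.47). C1qb, a chain of complement C1q made by tissue macrophages, had 19.4, 179 and 261 FPKM in rich tumours and 14.2, 55.9 and 85.7 FPKM in poor tumours (1.41 ± 0.53). These counts depended on 1 tumour. Without BdP cisplatin 2, 20 of the 23 macrophage genes were called, with a median of 1.43. Of 9 C1q and tissue macrophage genes, 5 were then called instead of 0. Leaving that tumour out also ties the class more closely to host sex. With all tumours kept and host sex in the fit, 0 of the 23 macrophage genes were called, with a median of 0.24. Subunits of the phagocyte oxidase, which makes superoxide, were called with all tumours included, namely Cybb (1.70 ± 0.30), Ncf1 (1.48 ± 0.23) and Ncf4 (1.45 ± 0.26), and the protease gene Ctsh (1.17 ± 0.22) and the oxidase gene Cyba, which was named after its values were seen, completed the 5 of 13 called, a count of 8 without BdP cisplatin 2.

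Dendritic cell and neutrophil genes were less uniform. Of 10 dendritic cell genes that passed the minimum level 2 were called, Ccr7, the receptor that guides mature dendritic cells and naive T cells to lymph nodes (1.93 ± 0.33), and Irf8, a transcription factor of dendritic cells and B cells (1.51 ± 0.28). Itgax, the integrin CD11c, had 1.09 FPKM in BdP cisplatin 2 and was not called (1.19 ± 0.41). Without that tumour 4 dendritic cell and 2 neutrophil genes were called. Of 7 neutrophil genes 0 were called, with a median of 0.63, and S100a9, a calcium-binding protein of neutrophils, had its highest level, 66.7 FPKM, in WT cisplatin 4. None of the 14 mast cell, eosinophil and basophil genes reached the minimum level, and their summed level was 1.31 to 4.82 FPKM in rich and 0.836 to 2.26 FPKM in poor tumours.

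Genes of chemokines and inflammatory signals were called unevenly. Of 19 chemokine ligand genes that passed the minimum level 1 was called, close to the share over all genes. It was Ccl5, which draws T cells and monocytes (1.58 ± 0.36), with 9.98, 31.0 and 56.1 FPKM in rich tumours and 1.58, 9.62 and 14.9 FPKM in poor tumours. Without BdP cisplatin 2, 13 of the 19 were called. Of the receptors, Cxcr4 (1.94 ± 0.40) and Ccr7 were called, 2 of 12, and 9 without that tumour. Of 22 NF-kB and inflammatory cytokine genes 9 were called, and 20 without BdP cisplatin 2. The called members were Icam1, a ligand of leukocyte integrins, and 8 components or feedback regulators of the NF-kB pathway (Nfkbia, Nfkb1, Nfkb2, Rel, Relb, Tnfaip3, Bcl3 and Birc3), named after their values were seen. The cytokine genes Tnf (1.67 ± 0.57) and Il1b (1.40 ± 0.47) were not called, and Tnf had 7.18, 40.6 and 101 FPKM in rich tumours against 0.312, 20.3 and 30.1 FPKM in poor tumours.

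Interferon response genes were higher in rich tumours by modest amounts and few were called. The median over 22 interferon gamma response genes was 0.79, with 4 called (Irf8, Icam1 and, named after their values were seen, Gbp5 and Ifngr1). Over 24 type I interferon genes it was 0.49, with Oasl1 alone called (1.15 ± 0.30), close to the share over all genes (4.24%). The call of Oasl1 was lost under 17 of 24 alternatives. Cxcl9, a chemokine induced by interferon gamma, had 0.201, 5.96 and 26.5 FPKM in rich tumours and 0.0126, 0.984 and 5.06 FPKM in poor tumours and was not called (1.61 ± 0.59). Isg15, a ubiquitin-like protein induced by type I interferon, was highest in the rich tumour WT PBS 2, at 97.6 FPKM. Of 20 MHC class I and peptide loading genes 4 were called, with a median of 0.95. They were H2-T23, named after its values were seen, and the non-classical class I genes H2-Q6 (2.20 ± 0.31), H2-Q7 (1.71 ± 0.29) and H2-M3 (1.55 ± 0.25). H2-Q6 and H2-Q7 are near-identical copies, so their separate values are uncertain. Without BdP cisplatin 2 the counts were 9 interferon gamma, 6 type I interferon and 11 class I genes, and without BdP PBS 1 the interferon gamma count was 2.

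Immune checkpoint genes, the inhibitory receptors and ligands that restrain T cells, were called for 8 of 20 members. Tigit had 1.20, 7.79 and 18.5 FPKM in rich tumours and 0, 1.10 and 4.33 FPKM in poor tumours (1.70 ± 0.41). Pdcd1, which encodes PD-1, had 1.06, 6.33 and 13.2 FPKM in rich tumours and 0, 1.20 and 2.41 FPKM in poor tumours (1.53 ± 0.37). Btla, an inhibitory receptor of lymphocytes, differed by 1.40 ± 0.36 and was highest, at 14.0 FPKM, in BdP cisplatin 2. That same tumour had 1.55 FPKM of Pdcd1 and 2.08 FPKM of Tigit. Without it 12 checkpoint genes were called, and without WT PBS 4 the count was 4.

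**Figure D3:**
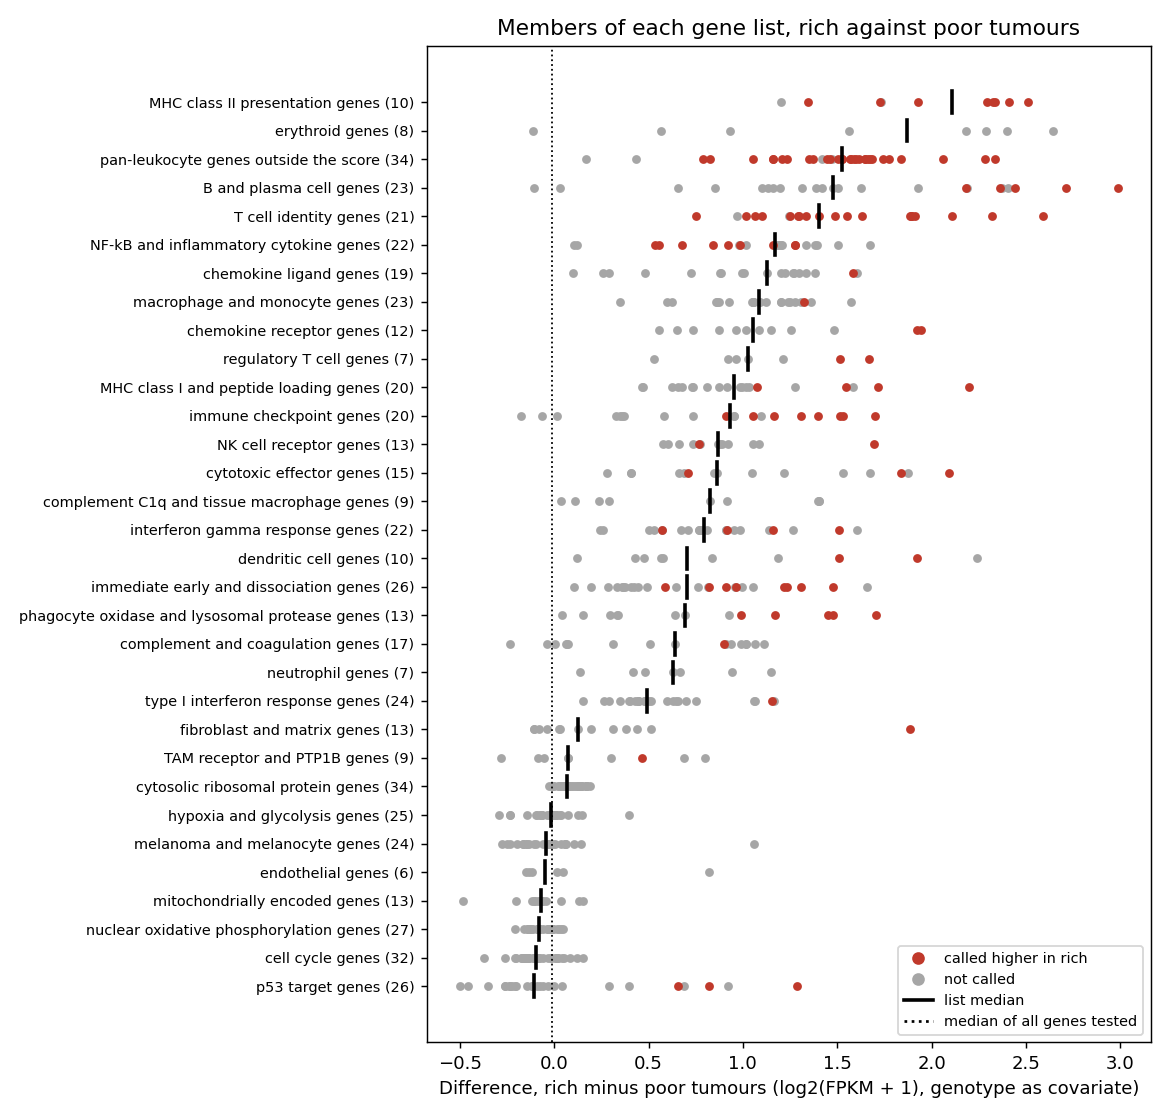
Difference of each list member that passed the minimum level (rich minus poor tumours on the log2(FPKM + 1) scale, horizontal axis), 1 line per list with the number of members in brackets. Red points were called higher in rich tumours, bars are list medians and the dotted line is the median of all genes, -0.01; the MHC class II median, 2.11, lies farthest to the right, and the medians of melanocyte, cell cycle and oxidative phosphorylation genes lie around the dotted line.

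In these FPKM, transcripts of the tumour cells themselves differed little. Scaling by size factors holds most genes level between libraries, so a general dilution of tumour RNA would not show in these values. After rescaling to a fixed sum outside the mitochondrial genome, 26.2% of all genes were positive, against 47.6% in FPKM. Whether tumour RNA was diluted was not tested. Of 24 melanoma and melanocyte genes 0 were called, with a median of -0.04, and their summed level was 6728 to 8660 FPKM in rich tumours and 6195 to 10524 FPKM in poor tumours. Tyr, the key enzyme of pigment synthesis, had 76.5, 95.9 and 117 FPKM in rich tumours and 95.6, 108 and 145 FPKM in poor tumours (-0.23 ± 0.10). The list's largest difference was that of Bcl2a1a (1.06), a survival gene that blood cells also express. The 32 cell cycle genes had a median of -0.10 with 9 positive and 0 called, and the hypoxia and nuclear oxidative phosphorylation lists had medians of -0.02 and -0.08 with 0 called. Cdc20, an activator of the mitotic ubiquitin ligase, had 21.5, 28.5 and 33.1 FPKM in rich tumours and 26.2, 40.0 and 45.8 FPKM in poor tumours (-0.37 ± 0.10). Of 26 p53 target genes, 3 were called higher (Pmaip1, Btg2 and, named after its values were seen, Fas), and the list median was -0.11. Markers of skeletal muscle and keratinocytes summed to at most 4.76 and 7.56 FPKM in any tumour.

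The genes lower in rich tumours were few and changed by small amounts. Ggt7, a member of the gamma-glutamyltransferase family, had 10.6, 17.7 and 22.1 FPKM in rich tumours and 19.6, 22.3 and 26.2 FPKM in poor tumours, a difference of -0.37 ± 0.09. Its values did not overlap in BdP or in WT. Ephb4, a receptor tyrosine kinase for ephrin-B2, had 2.79, 4.06 and 4.86 FPKM in rich tumours and 4.52, 5.52 and 7.00 FPKM in poor tumours (-0.43 ± 0.11). The other 4 protein-coding genes that met the naming rule were Nacc2, a transcriptional repressor (-0.39 ± 0.10), Plpp5, a lipid phosphatase (-0.38 ± 0.09), Ikbip (-0.30 ± 0.08) and Zbtb41, a zinc finger gene (-0.26 ± 0.07). When FPKM were rescaled to a fixed sum outside the mitochondrial genome, 0 genes were called lower and 278 higher, and the median over all genes was -0.13.

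Ptpn1 encodes PTP1B, a tyrosine phosphatase that the series title names, and it was the only gene of the TAM receptor and PTP1B list called between rich and poor tumours. It had 9.93, 13.4 and 18.9 FPKM in rich tumours and 7.77, 9.42 and 12.1 FPKM in poor tumours (0.47 ± 0.11, with 0.50 in BdP and 0.43 in WT). The BdP rich tumours were all above the BdP poor tumours, and the WT groups overlapped. Its difference between the labelled genotypes was smaller, with 12.6 ± 2.92 FPKM in BdP tumours and 11.0 ± 3.46 FPKM in WT tumours (SD, n = 8 each), and limma did not call it (0.20 ± 0.11, adjusted p = 0.28). The rich against poor call of Ptpn1 was lost under 9 of 24 alternatives, among them leaving out WT PBS 4, BdP PBS 2, BdP PBS 3, BdP cisplatin 3 or BdP cisplatin 4, and its direction was kept in all 24. Pros1, the gene of the TAM ligand protein S, did not separate them (-0.08 ± 0.17). Between genotypes Pros1 measured 1.86 ± 0.457 FPKM in BdP tumours and 8.38 ± 2.76 FPKM in WT tumours, with no overlap and a difference of -1.67 ± 0.17 (limma adjusted p = 6.29e-05). Axl, a TAM receptor of macrophages and tumour cells, ran from 2.75 to 34.5 FPKM in rich tumours and from 1.30 to 12.5 FPKM in poor tumours and was not called (0.80 ± 0.48). The lowest rich value was that of BdP cisplatin 2. The second ligand Gas6 (0.07 ± 0.28) and the receptors Mertk (0.30 ± 0.20) and Tyro3 (-0.28 ± 0.13) were not called.

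The rich tumours differed in their levels of cell type transcripts. BdP cisplatin 2 and WT PBS 3, which also differ in genotype, treatment and host sex, had almost the same score, 5.40 and 5.38. Over the macrophage list BdP cisplatin 2 ranked 14 of 16 and WT PBS 3 ranked 1, while over the B cell list they ranked 2 and 9. BdP cisplatin 2 had 19.4 FPKM of C1qb and 6.24 of Mpeg1, a pore-forming protein of macrophages, where WT PBS 3 had 261 and 87.4 FPKM. It had 624 FPKM of Igkc and 169 of Cd79a, where WT PBS 3 had 32.3 and 3.36 FPKM. Trac was close in the pair, at 30.5 and 20.1 FPKM, and Cd74 was at 1199 and 880 FPKM. Gzma was at 2.37 FPKM in BdP cisplatin 2 and 24.8 FPKM in WT PBS 3.

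**Figure D4:**
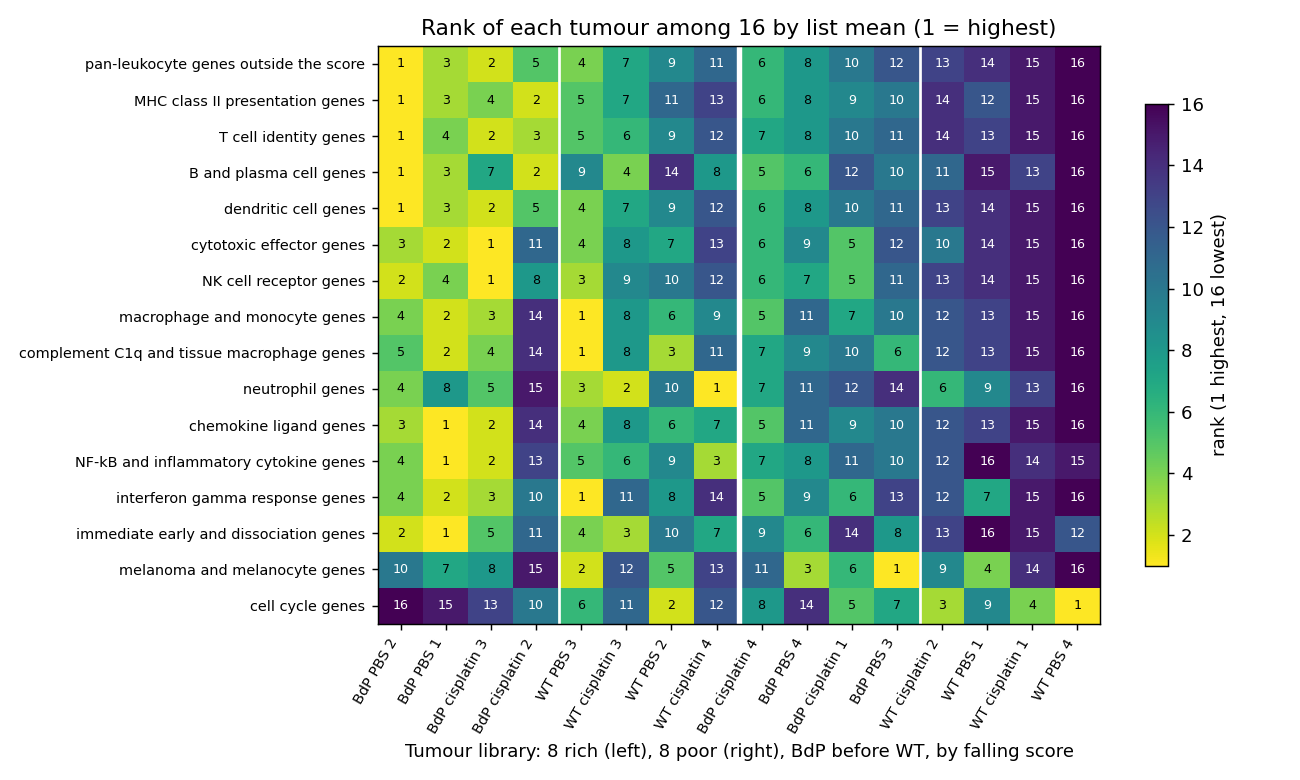
Rank of each tumour among the 16 by the mean log2(FPKM + 1) of the tested members of 16 gene lists (1 is highest), rich tumours on the left and poor tumours on the right. BdP cisplatin 2 ranks 2 and 3 for MHC class II and T cell genes but 14 for macrophage and chemokine ligand genes, and WT PBS 4 ranks 16 in most immune lists.

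BdP PBS 2 ranked first for T cell, B cell, dendritic cell and MHC class II genes. It had 57.3 FPKM of Trac and 965 FPKM of Igkc. The 2 tumours with the highest levels of Cr2, a complement receptor of B cells and follicular dendritic cells, were also BdP PBS 2 (7.91 FPKM) and BdP cisplatin 2 (6.94 FPKM). Of the 13 lymph node stroma and lymphatic genes, Ccl21a and Ccl19, the chemokines of lymph node T cell zones, were at 0 in all 16 tumours. Whether reads of these genes could be assigned at all was not tested, so their 0 values do not show that lymph node tissue was absent. In BdP PBS 2 and BdP cisplatin 2, Ltb, a lymphotoxin subunit of lymphocytes, had 87.0 and 45.4 FPKM. Cxcl13 had 0.0733 and 0.0755 FPKM there, and Madcam1 and Glycam1 were at 0. WT cisplatin 4 and WT cisplatin 3 ranked first and second for neutrophil genes. WT cisplatin 4 ranked 12 for T cell genes, and its Il1b, 100.3 FPKM, was the highest of the rich tumours. WT PBS 4 was the lowest of the 16 in T cell, B cell, macrophage, MHC class II and interferon gamma genes, with Trac at 0 and Igkc at 2.28 FPKM.

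Immediate early genes, which rise within minutes of stimulation and during tissue dissociation, were higher in rich tumours along with the immune genes. All 26 members had a positive difference, 8 were called and the median was 0.71. Zfp36, an RNA-binding regulator of cytokine transcripts, had 38.7, 68.6 and 102 FPKM in rich tumours and 7.67, 32.0 and 53.9 FPKM in poor tumours (1.31 ± 0.23). The summed level of the list was 1308 to 2492 FPKM in rich tumours and 373 to 1883 FPKM in poor tumours. The lowest list mean among the poor tumours was that of WT PBS 1, and without it 4 members were called, with a median of 0.44. Erythroid genes had a median of 1.87 with 0 called, and their summed level spanned 71.7 to 207278 FPKM in rich tumours and 84.9 to 54664 FPKM in poor tumours. The part of these transcripts in the leukocyte differences was not tested.

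Some list medians were unlike in the 2 genotypes. The macrophage median was 0.42 in BdP tumours and 1.73 in WT tumours, the chemokine ligand median 0.24 and 1.504, and the C1q list 0.11 and 1.71. Lymphocyte lists ran the other way, with T cell medians of 1.65 in BdP and 1.16 in WT tumours and B cell medians of 1.95 and 0.86. The difference between these medians was not tested. Gene by gene, the limma interaction of genotype with the rich or poor class called 0 of 12315 genes (0%), with 547 genes at an unadjusted p below 0.05, which is a description too because measured values made the class. Without BdP cisplatin 2 the BdP medians were 1.03 for macrophage genes, 0.91 for chemokine ligands and 0.36 for the C1q list. The interaction of treatment with class, added after the data were seen, also called 0 genes (0%), with 940 at an unadjusted p below 0.05.

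**Figure D5:**
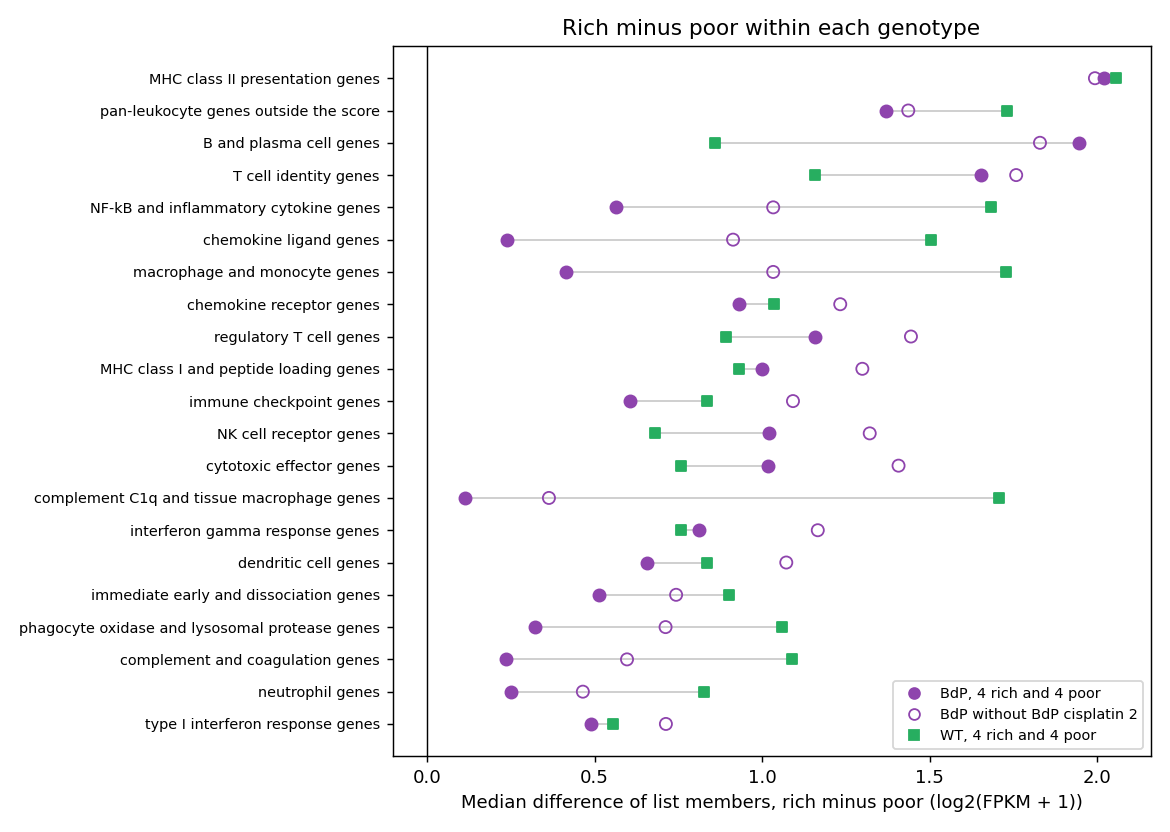
Median difference of list members, rich minus poor on the log2(FPKM + 1) scale (horizontal axis), in BdP tumours (purple, open without BdP cisplatin 2) and WT tumours (green squares). MHC class II medians almost coincide at 2.02 and 2.06, and the BdP macrophage median is 0.42 with that tumour and 1.03 without it.

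The score itself was compared between the labelled groups over all 16 tumours, without the rich or poor class. The mean score was 4.06 ± 1.25 under cisplatin and 4.12 ± 1.67 under PBS (SD, n = 8 each), a difference of -0.06 (exact two-sided permutation p = 0.923 over 4900 arrangements within genotype, 0.971 adjusted over 6 tests). Within BdP the means were 4.92 ± 0.679 under cisplatin and 4.96 ± 1.22 under PBS, and within WT 3.20 ± 1.10 and 3.28 ± 1.76 (n = 4 each, exact two-sided permutation p = 0.971 in both, smallest possible 0.0286). No difference in leukocyte score between cisplatin and PBS was detectable with these numbers. The mean score was 4.94 ± 0.916 in BdP tumours and 3.24 ± 1.36 in WT tumours (n = 8 each), a difference of 1.70 (exact two-sided permutation p = 0.0167 over 4900 arrangements within treatment). Adjusted over the 6 tests that permutation p was 0.1004, which misses the threshold. The difference was 1.72 under cisplatin (exact permutation p = 0.0571) and 1.67 under PBS (exact permutation p = 0.171), each with n = 4 a group. With the score computed from TPM the difference was 2.31 (exact permutation, adjusted p = 0.0392), and without WT PBS 3 it was 2.05 (exact permutation, adjusted p = 0.0245). TPM also moved the median BdP minus WT difference of all genes from 0.01 to 0.48. The 3 libraries richest in mitochondrial reads, which TPM counts in its sum, were all WT. In the other alternatives tried for the score the adjusted permutation p stayed above 0.05, at the lowest 0.0563 without WT cisplatin 3.

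Taking the division into account altered how many genes differed between genotypes. With the rich or poor class in the fit, limma called 1515 genes between BdP and WT tumours (12.3%), 982 higher and 533 lower in BdP, and 993 without BdP cisplatin 4. Without the class it called 780 (6.33%), 381 higher and 399 lower. The class is balanced over genotype, so it changes the residual spread and not the estimated difference. Measured leukocyte transcripts made the class, so the count with it is a description. The class leaves in place the higher mean score of BdP tumours (4.94 against 3.24 in WT). The 1515 genes are therefore not adjusted for the leukocyte difference between genotypes. In TPM the fit with the class called 680 genes, 653 higher and 27 lower in BdP, and TPM moved the median BdP minus WT difference of all genes to 0.48, against 0.01 in FPKM. With the score as a continuous covariate in place of the class, an alternative chosen after seeing the data, 124 genes were called, 64 higher and 60 lower. Unlike the class, the continuous score also takes up the part of each genotype difference that follows the score.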

How the data were processed

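RNA of 16 disaggregated tumours, 4 in each labelled group, was sequenced. Per the submitters' processing notes, CASAVA, HISAT2 2.0.5, featureCounts 1.5.0-p3 and the GRCm38/mm10 build were used. The authors deposited 1 table of FPKM for 54532 genes; FPKM times gene length gave whole reads for 100% of values (tolerance 0.1 read), already scaled between libraries by size factors. Columns were matched to samples by title.

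Values were analysed as log2(FPKM + 1). Genes at 1 FPKM or more in 4 libraries were tested with limma 3.58.1 (R 4.3.3, trended variance, genotype as covariate, Benjamini-Hochberg adjustment, threshold 0.05), leaving out the 4 score genes. The fit was tested on simulated data. Score differences between labelled groups were tested by exact two-sided permutation. No count-based test was run. The members, gene lists and tests were chosen with earlier results of these data known. Genes named were drawn from the 10 largest higher and up to 10 lower protein-coding genes called with a mean of at least 5 FPKM. The other sources were the 4 largest differences of each list, the score genes, and Pros1, Gas6, Tyro3, Axl, Mertk and Ptpn1. Not all genes of these sets are described (Ly6e, among the 10 largest higher, is not). Exceptions to the rule were the genes said to be named after their values were seen and some lymph node genes. Host sex was read from Xist and 4 Y chromosome genes. Alternatives covered scaling, pseudocount, filter, covariates, the score, and leaving out each library. Depth limits the precision of low values, most of all in WT PBS 1, which had 2322202 reads outside the mitochondrial genome. Promoter sequences are from RefSeq.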

Additional observations from a re-analysis of the deposited data

Results flagged for a closer look

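In 120 groups of 8 tumours tested for a value far from the other 7, 9 stood apart (gap over range above 0.526), where chance flags about 1 group in 20. The count is not far above that rate, which holds for independent groups of normally distributed values. The groups here share libraries and are not independent. Among poor tumours, WT PBS 1 had a mitochondrial share of 76.9%, with the next tumour at 5.063%. Its mean log2(FPKM + 1) was 16.84 over mitochondrially encoded genes (next 9.07), 9.62 over ribosomal protein genes (next 8.859) and 2.975 over immediate early genes (next 4.138). Among rich tumours, BdP cisplatin 2 had the lowest mean log2(FPKM + 1) of chemokine ligand genes at 2.402 (next 3.752), of erythroid genes at 1.758 (next 6.636) and of adipocyte genes at 1.4 (next 2.628). The rich tumour WT PBS 2 had 15.49% of reads from haemoglobin genes (next 6.456%). Ggt7 was lowest among rich tumours in BdP PBS 2, at 3.531 on the log2(FPKM + 1) scale (next 4.075). The cause of these values was not tested.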

How the results depend on the processing

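The 522 genes called between rich and poor tumours became 278 in TPM over genes outside the mitochondrial genome, 341 without a filter, 263 at 5 FPKM or more, and, in alternatives chosen after seeing the data, 0 with host sex as a covariate. They became 1153 with the score as a continuous covariate, and 346 (without BdP PBS 3) to 957 (without BdP cisplatin 2) when 1 library was left out. With the replicate block 5 were called. All 522 genes kept their direction with the block and had an unadjusted limma p below 0.05, with a median difference of 1.009 against 1.054. The same libraries and class chose these genes, so this outcome was largely fixed in advance and lends the calls no support. The class was uneven over the blocks, with 1, 3, 3 and 1 rich tumours for replicate numbers 1, 2, 3 and 4. Of the named genes, 55 lost their call with host sex and 55 with the block, and 90 kept their side of the threshold in each. Replicate numbers were not taken as pairs: deviations of same-numbered libraries correlated at -0.611 to 0.413, over 0.1 in 9 of 24 pairs against 25 of 72 with different numbers. Between BdP and WT, 1515 genes became 680 in TPM, 780 without the class, 124 with the continuous score, 1231 with the replicate block and 993 (without BdP cisplatin 4) to 1846 (without WT PBS 1) with 1 library left out. The genotype by class interaction called 6 genes in TPM. The score difference of BdP minus WT was 2.31 in TPM and 1.38 to 2.05 with 1 library left out. The score difference of cisplatin minus PBS was 0.324 in TPM (0.0297 in BdP and 0.619 in WT). With 1 library left out it ran from -0.372 to 0.292 (-0.493 to 0.425 in BdP, -0.710 to 0.618 in WT), and without the 3 libraries richest in mitochondrial reads it was -0.619 (-1.205 in WT). The causes were not tested. The other alternatives moved these counts by at most 1.5 times and left the score tests on the same side of the threshold, except that BdP minus WT passed it in TPM and without WT PBS 3.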

Other observations

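Among the 9 tumours of Xist-positive hosts, 7 rich and 2 poor, the mean score was 4.97 in rich and 3.55 in poor tumours. The 2 poor tumours were WT PBS 1 (score 2.35, 76.9% mitochondrial reads) and BdP cisplatin 4 (score 4.74). Each poor mean therefore rests on 2 unlike libraries that also differ in genotype and treatment. Over T cell genes the mean log2(FPKM + 1) in Xist-positive hosts was 2.63 in rich and 1.72 in poor tumours. It was 5.10 and 4.20 over MHC class II genes, and 4.24 and 3.37 over macrophage genes. The 7 tumours of Y-positive hosts held 1 rich tumour, BdP cisplatin 2, whose macrophage mean was 2.36, against 2.80 in the 6 poor tumours, and whose T cell mean was 3.34, against 1.02. The lowest rich tumour lay below the highest poor tumour of Xist-positive hosts in T cell genes (1.03 and 2.43) and in MHC class II genes (3.301 and 5.06).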
